A study of Mus musculus with 12 samples.

Results

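The genes described here are 39 interferon-induced antiviral genes of the mouse, read on Illumina BeadChips in CD45+ cells of the prostate. A gene was taken through its annotated probe, a probe counted when its detection p was under 0.05 on at least 3 of the 12 arrays, and the probe with the highest mean stood for the gene. No probe on the array was named for Ifi44 or Herc6, which were not analysed here. The probes of Ifit1, Ifih1 and Xaf1 passed the detection threshold on at most 0, 1 and 2 arrays and were left out. The remaining 34 genes are among 11971 measured in all, and 32 of them were above background on 12 of 12 arrays. Oas1a passed on 11 arrays, with 2 of 3 in Allo/Y, and Oas3 on 9, with 0 of 3 in Allo/Y.

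Type I interferons signal through the receptor Ifnar1 and Ifnar2 and the kinases Jak1 and Tyk2 to a complex that holds Stat2 and Irf9 and binds a DNA element built on repeats of the bases GAAA. The genes switched on in this way encode proteins that sense viral RNA or DNA, cut or sequester it, modify other proteins or hold virions at the membrane. Many of them also respond to interferon gamma, which T cells secrete, and to Irf3 or Irf7 directly, so their RNA alone does not tell which ligand acted.

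All 12 mice were C57Bl/6 (TRAMP), a strain in which a viral T antigen driven by the probasin promoter causes tumors of the prostate epithelium, and each array held 1 of 3 mice of a group. The groups are named for the adoptive T cell transfer (ACT) given: Allo/Y ACT, Tumor ACT or the combined Tumor+Allo/Y ACT with cells taken at 1 week, and the combined ACT with cells taken after 28 days. Every mouse had received a transfer, so no untreated level is among the arrays, and neither the meaning of Allo/Y nor ages are in the labels. Between 18981 and 21718 of 45281 probes passed the detection threshold on an array. Values are log2 intensities after background correction and quantile normalization, a change is a difference of group means on that scale, and the word called stands for an adjusted p under 0.05 in limma (two-sided, Benjamini-Hochberg over 11971 genes).

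The CD45 gene Ptprc was above background on every array, at 5.37, 5.36 and 5.66 in Allo/Y, 6.63, 7.63 and 7.95 in Tumor, 7.77, 7.34 and 8.22 in Tumor+Allo/Y and 8.24, 7.76 and 8.40 on day 28. The mean over 25 genes that all leukocytes express was 8.83, 9.08 and 8.99 in Allo/Y, 10.68, 10.75 and 11.21 in Tumor, 11.11, 10.73 and 11.14 in Tumor+Allo/Y and 11.08, 10.79 and 11.04 on day 28. It was lowest on the Allo/Y arrays, with no overlap with the other groups. The mean over 20 measured markers of prostate and seminal vesicle epithelium ran the other way, at 12.36, 11.63 and 12.06 in Allo/Y, 10.36, 10.52 and 7.97 in Tumor, 9.62, 10.61 and 9.20 in Tumor+Allo/Y and 10.31, 11.02 and 10.28 on day 28, so epithelial markers read highest in Allo/Y. In bulk cells of this kind, fewer cells of a type and less RNA per cell cannot be told apart.

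To show the element that interferon signaling acts on, promoter stretches are printed for the 3 genes with the largest and the 3 with the smallest day 28 change, and for Bst2, which was added after its values were seen. The sequences are RefSeq's for GRCm38.p6, written 5′ to 3′ on the gene's strand. Capitals mark GAAANNGAAA, which is GAAA, any pair of bases and GAAA, searched on both strands and counted where matches overlap. Oas3 (chr5:120777695-120777764, minus strand), Isg15 (chr4:156200845-156200926, minus strand) and Bst2 (chr8:71537557-71537632, minus strand) hold matches and are shown with 30 bases on either side. Ifit2 (chr19:34550634-34550733, plus strand), Sp100 (chr1:85649928-85650027, plus strand), Irf9 (chr14:55603925-55604024, plus strand) and Samd9l (chr6:3399532-3399631, minus strand) hold none within 300 bases and are shown around the annotated start, as the first of 2 listed promoters for Ifit2, Sp100 and Irf9. The second promoters hold no match either.
Oas3: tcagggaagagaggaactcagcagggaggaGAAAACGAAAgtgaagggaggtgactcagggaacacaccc
Isg15: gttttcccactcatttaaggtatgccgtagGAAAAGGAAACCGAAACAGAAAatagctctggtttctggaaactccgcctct
Bst2: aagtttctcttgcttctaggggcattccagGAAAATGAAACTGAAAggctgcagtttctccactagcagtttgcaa
Ifit2: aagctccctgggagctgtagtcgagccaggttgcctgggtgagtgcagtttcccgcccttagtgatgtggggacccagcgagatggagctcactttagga
Sp100: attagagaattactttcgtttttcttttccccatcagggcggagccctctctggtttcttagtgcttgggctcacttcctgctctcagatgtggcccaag
Irf9: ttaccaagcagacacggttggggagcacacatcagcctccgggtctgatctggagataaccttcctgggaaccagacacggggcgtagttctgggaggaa
Samd9l: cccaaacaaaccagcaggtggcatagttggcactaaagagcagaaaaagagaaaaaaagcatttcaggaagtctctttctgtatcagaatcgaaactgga

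Isg15 carries 3 overlapping matches that begin 78, 72 and 66 bases before the start, Bst2 carries 2 that begin 130 and 124 bases before it, and Oas3 carries 1 that begins 75 bases before it. The promoter table lists 29 of the 39 genes, and 13 of these (44.8%) hold at least 1 match in the 250 bases before and 50 after a start, against 1079 of 27025 genes (3.99%), or 3.44% of 32851 promoters of that length. Oas2, Mx1, Mx2, Usp18, Dhx58, Parp14, Parp9, Rtp4, Zbp1 and Ifi27l2a have no entry. Among the 24 measured genes with an entry, the median day 28 change was -1.01 for the 11 with a match and -0.69 for the 13 without, and the ranges overlapped, from -2.02 to -0.25 and from -1.65 to -0.08. A match is a description of the letters, and its absence in this window says nothing about the factor.

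All 34 measured genes differed among the 4 groups (limma's moderated F test, adjusted p at most 0.039), where 45.8% of all genes did. In Tumor+Allo/Y at 1 week, 34 of 34 were called higher than in Allo/Y, against 20.6% of all genes. With the arrays scaled to leukocyte genes, however, 6 were called higher and 11 lower. The share of all genes called on that scale is not given here, so these counts are not read as particular to the 34. Without that scaling, the 3 arrays of Tumor+Allo/Y lay wholly above those of Allo/Y for 34 of 34, as for 27.6% of all genes. The median log2 difference was 1.89, against -0.05 over all genes. Apart from Oas3, which has only a bound against Allo/Y, the 3 largest differences belonged to Mx1, a GTPase that blocks influenza virus (3.06), Trim30a, a negative regulator of NF-kB (2.99), and Isg15, a ubiquitin-like modifier (2.89). The 3 smallest belonged to Irf9, the DNA-binding subunit of the interferon-activated complex (0.52), Adar, an RNA-editing enzyme (0.54), and Trim25, a ubiquitin ligase of the RIG-I pathway (0.88).

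The sign of this comparison depended on the scaling. The 25 leukocyte genes differed between the same groups by a median of 2.42, with 24 of 25 called higher. When the arrays were shifted to an equal mean of those genes, which moved the median of all genes to -2.07, the median of the 34 became -0.13 and 15 were positive. On that scale Mx1, Trim30a, Isg15 and Sp100 were among the positive differences, at 1.04, 0.97, 0.86 and 0.43, while Irf9, Adar and Trim25 stood at -1.51, -1.48 and -1.15. The part of leukocyte content in the difference was not tested further.

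**Figure D1:**
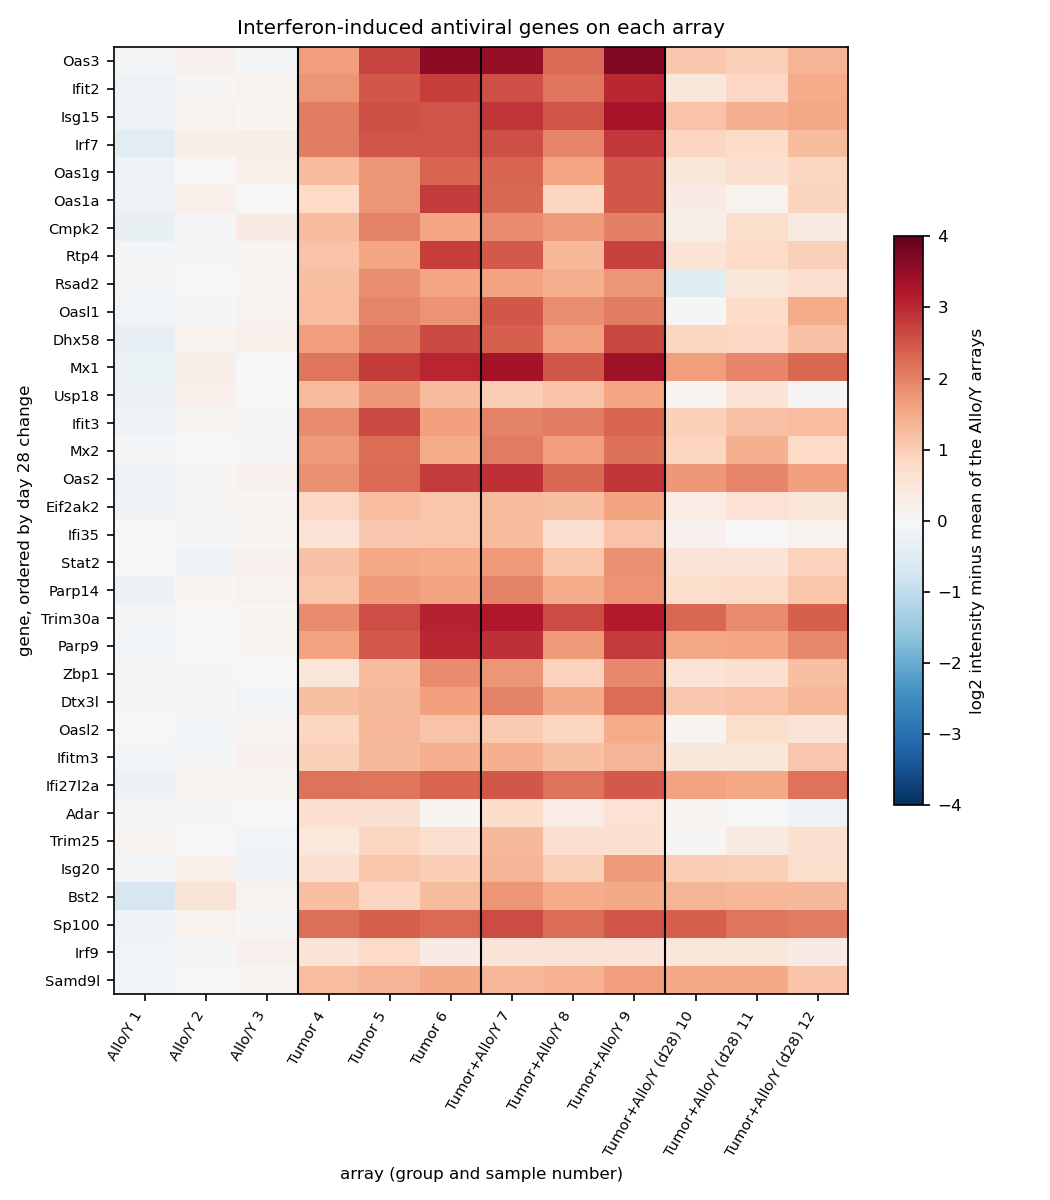
Each row is 1 of 34 genes and each column 1 of 12 arrays; color is the log2 intensity minus the mean of the 3 Allo/Y arrays, with genes ordered by their day 28 change. All 1-week Tumor and Tumor+Allo/Y columns lie above Allo/Y and the day 28 columns lie between for most rows, though with the arrays scaled to leukocyte genes 11 of the 34 were called lower in Tumor+Allo/Y than in Allo/Y. That scaling moved the median of all genes to -2.07, and the share of all genes called lower on it is not given here. Oas3 was not above background in Allo/Y.

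The regulators of the pathway come first. Isg15, a ubiquitin-like protein that is attached to other proteins, read 9.49, 9.84 and 9.77 in Allo/Y, 11.76, 12.25 and 12.21 in Tumor, 12.55, 12.22 and 12.99 in Tumor+Allo/Y and 10.83, 11.13 and 11.24 on day 28. The day 28 arrays were below every 1-week Tumor and Tumor+Allo/Y array and above every Allo/Y array. Scaled to leukocyte genes, Isg15 stood at -0.63 against Allo/Y on day 28. Its log2 difference was 2.89 (SE 0.22, adjusted p = 3.13e-05) in Tumor+Allo/Y against Allo/Y and -1.52 (SE 0.22, adjusted p = 0.0197) between 1 week and day 28, which is 2.86-fold lower. Usp18, the protease that removes Isg15 and also dampens the receptor, read 10.71, 11.14 and 10.94 in Allo/Y, 12.19, 12.65 and 12.21 in Tumor, 11.92, 12.07 and 12.50 in Tumor+Allo/Y and 11.02, 11.47 and 10.97 on day 28. On day 28 it overlapped with Allo/Y and lay below both 1-week groups with Tumor ACT. It fell by 1.01 on the log2 scale over time (SE 0.21, adjusted p = 0.0413), and its second probe gave -1.28.

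Irf7, the factor that amplifies interferon alpha production, read 8.30, 8.97 and 8.97 in Allo/Y, 10.78, 11.26 and 11.25 in Tumor, 11.31, 10.70 and 11.58 in Tumor+Allo/Y and 9.62, 9.47 and 10.01 on day 28. Its day 28 arrays again stood between Allo/Y and the other 1-week arrays, without overlap. Scaled to leukocyte genes, Irf7 stood at -1.05 against Allo/Y on day 28. The change over time was -1.50 (SE 0.27, adjusted p = 0.0313), a fall of 2.82-fold, after a difference of 2.45 (SE 0.27) from Allo/Y at 1 week. Stat2, a subunit of the interferon-activated complex, read 8.20, 8.06 and 8.37 in Allo/Y, 9.39, 9.75 and 9.70 in Tumor, 9.91, 9.31 and 10.04 in Tumor+Allo/Y and 8.71, 8.73 and 9.14 on day 28. The order of the groups was as for Irf7 and no ranges overlapped between 1 week and day 28. Its change over time, -0.89 (SE 0.21, adjusted p = 0.0567), did not pass the threshold.

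Irf9 read 10.17, 10.21 and 10.44 in Allo/Y, 10.83, 11.06 and 10.61 in Tumor, 10.80, 10.78 and 10.78 in Tumor+Allo/Y and 10.72, 10.72 and 10.61 on day 28. The 1-week Tumor+Allo/Y arrays were nearly equal, and the day 28 arrays lay just below them and overlapped with Tumor. Its change over time was -0.10 (SE 0.13, adjusted p = 0.714), with a 95% interval from -0.40 to 0.19, and its second probe gave -0.02. Both subunits of the same complex were therefore above Allo/Y at 1 week by the unshifted scale, Stat2 by 1.54 and Irf9 by 0.52, and on the leukocyte scale both stood below it, at -0.48 and -1.51. Whether the changes of these genes differ from each other was not tested.

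Both Ifit genes measured belong to a family of interferon-induced antiviral proteins and are neighbors on chromosome 19. Ifit2 read 8.84, 9.10 and 9.19 in Allo/Y, 10.80, 11.52 and 11.80 in Tumor, 11.63, 11.19 and 12.06 in Tumor+Allo/Y and 9.51, 9.88 and 10.54 on day 28. The day 28 arrays did not reach any 1-week array of the Tumor or Tumor+Allo/Y group. Its fall over time was the largest among the called genes, -1.65 (SE 0.32, adjusted p = 0.0395), and its second probe gave -1.67. Ifit3 read 10.91, 11.12 and 11.08 in Allo/Y, 12.93, 13.69 and 12.68 in Tumor, 13.03, 13.09 and 13.35 in Tumor+Allo/Y and 11.98, 12.20 and 12.27 on day 28. It too was lower on every day 28 array than on any array of those groups. Its change, -1.01 (SE 0.23, adjusted p = 0.0512), lay just outside the threshold, and its second probe gave -1.10.

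The OAS family makes short adenylate chains that activate RNase L, and Oasl1 and Oasl2 are relatives, of which Oasl1 is known to restrain translation of Irf7 in mice. Oas3 read 4.61, 4.84 and 4.59 in Allo/Y, 6.34, 7.37 and 8.25 in Tumor, 8.15, 6.95 and 8.37 in Tumor+Allo/Y and 5.75, 5.62 and 6.04 on day 28. Against Allo/Y, where it was not above background, it was at least 7.14-fold higher in Tumor+Allo/Y (adjusted p = 0.000567) and at least 5.04-fold higher in Tumor. On day 28 the same bound, taken from group means, was 1.76-fold, and the difference did not pass the threshold (adjusted p = 0.0683). Scaled to leukocyte genes, Oas3 stood at -0.88 against Allo/Y on day 28 (adjusted p = 0.0283 in limma). The Tumor arrays ran from 6.34 to 8.25, and the day 28 arrays lay below all of them. Its day 28 change had the largest size of the 34, -2.02 (SE 0.46, adjusted p = 0.0513), and was not called.

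Oas1g read 10.00, 10.23 and 10.41 in Allo/Y, 11.48, 11.98 and 12.53 in Tumor, 12.54, 11.78 and 12.71 in Tumor+Allo/Y and 10.69, 10.85 and 11.08 on day 28. Its day 28 arrays lay above Allo/Y and below the other groups. Scaled to leukocyte genes, Oas1g stood at -1.34 against Allo/Y on day 28. It fell over time by 1.47 on the log2 scale (SE 0.29, adjusted p = 0.0396). Its 2 other kept probes gave -1.52 and -1.38, the last by a probe above background on only 6 of 12 arrays. Oas1a, its neighbor on chromosome 5 and a close copy whose transcripts a probe may not separate from those of Oas1g, stood at -1.43 (SE 0.51, adjusted p = 0.159) with overlapping ranges. Oas2 stood at -0.91 (SE 0.24, adjusted p = 0.0812) with ranges apart.

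Oasl1 read 9.04, 9.11 and 9.28 in Allo/Y, 10.39, 11.11 and 10.94 in Tumor, 11.63, 11.00 and 11.20 in Tumor+Allo/Y and 9.18, 9.89 and 10.62 on day 28. The day 28 arrays were far apart, and overlapped with Allo/Y and with Tumor but not with Tumor+Allo/Y. The change was -1.38 (SE 0.33, adjusted p = 0.0594) by the brightest probe, and -1.58 and -1.72 by the 2 dimmer probes, with adjusted p of 0.0375 and 0.0373 in the same model fitted to every kept probe (the fit over probes). Oasl2, beside it on chromosome 5, stood at -0.69 (SE 0.2, adjusted p = 0.104), and at -1.04 and -1.20 on its dimmer probes, both of which were called in the fit over probes (adjusted p = 0.0367 and 0.0373). Whether these genes were called therefore depended on the probe.

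Rsad2, known as viperin, which makes a chain-terminating nucleotide, and Cmpk2, a mitochondrial nucleotide kinase that feeds it, are neighbors on chromosome 12. Rsad2 read 11.58, 11.66 and 11.73 in Allo/Y, 12.85, 13.52 and 13.22 in Tumor, 13.26, 13.12 and 13.42 in Tumor+Allo/Y and 11.17, 12.11 and 12.33 on day 28. On day 28 one array lay below all Allo/Y arrays and the other arrays lay above them. It fell by 1.40 on the log2 scale (SE 0.27, adjusted p = 0.0395) and Cmpk2 fell by 1.43 (SE 0.22, adjusted p = 0.0243). Cmpk2 read 8.61, 8.85 and 9.23 in Allo/Y, 10.17, 10.89 and 10.49 in Tumor, 10.79, 10.59 and 10.90 in Tumor+Allo/Y and 9.14, 9.61 and 9.25 on day 28. Its day 28 arrays overlapped with Allo/Y and with no other group. On day 28 the difference from Allo/Y was 0.22 (SE 0.27, adjusted p = 0.548) for Rsad2 and 0.43 (SE 0.22, adjusted p = 0.132) for Cmpk2, neither called.

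Mx1 read 5.36, 5.86 and 5.62 in Allo/Y, 7.75, 8.42 and 8.65 in Tumor, 8.95, 8.09 and 8.99 in Tumor+Allo/Y and 7.29, 7.58 and 7.90 on day 28. Every day 28 array was above every Allo/Y array and below every Tumor+Allo/Y array, and the highest of them, 7.90, overlapped with Tumor. C57Bl/6 mice are known to carry an Mx1 allele that gives no full protein, so the transcript here does not stand for a working protein. The difference from Allo/Y was 3.06 (SE 0.3, adjusted p = 7.54e-05) at 1 week and 1.98 (SE 0.3, adjusted p = 0.000571) on day 28, which became -0.03 on the leukocyte scale, and the change between those times, -1.08 (SE 0.3, adjusted p = 0.0898), was not called. Mx2, its relative, stood at -0.96 (SE 0.23, adjusted p = 0.0626) over time.

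**Figure D2:**
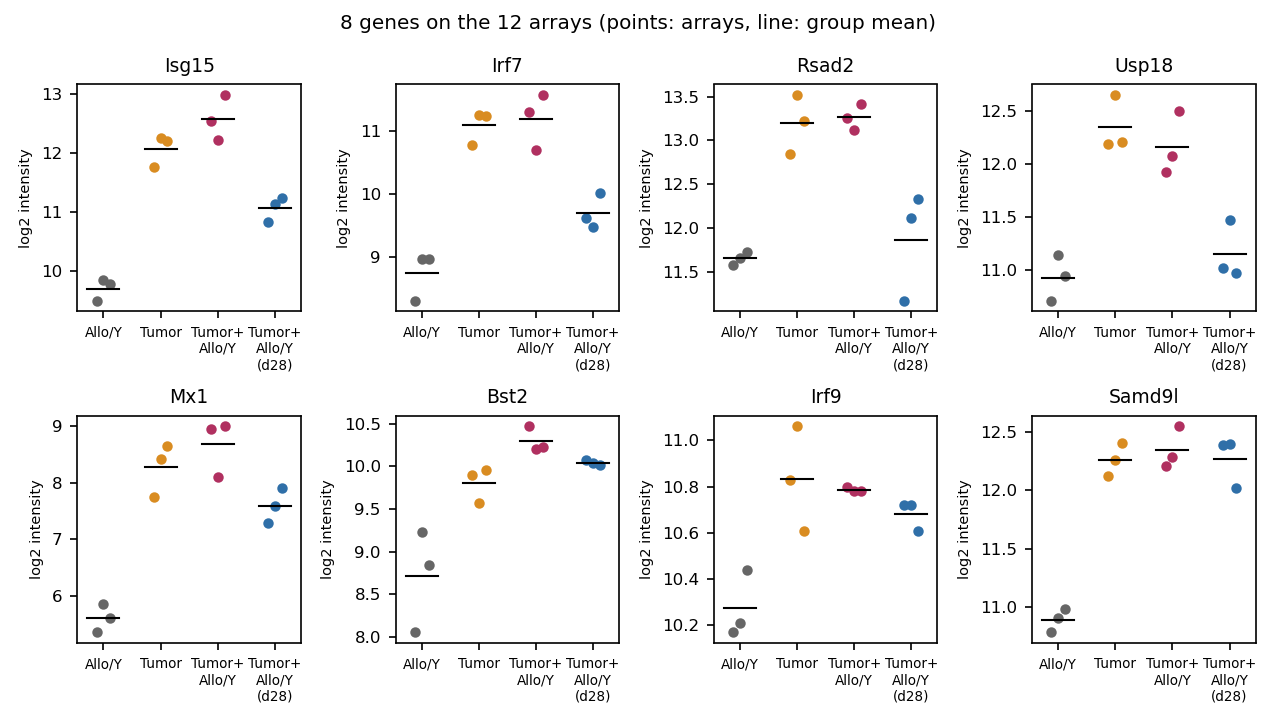
Log2 intensity of 8 genes on each of the 12 arrays, with points for arrays and a line for each group mean; each panel has its own vertical axis. For Isg15 and Irf7 the day 28 points lie between Allo/Y and the other groups, for Rsad2 and Usp18 they overlap with Allo/Y, and for Samd9l they overlap with the 1-week Tumor+Allo/Y points. With the arrays scaled to leukocyte genes, Rsad2, Usp18, Bst2, Irf9 and Samd9l stood below Allo/Y in Tumor+Allo/Y. On that scale Isg15 and Irf7 stood below Allo/Y on day 28, at -0.63 and -1.05.

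Among proteins at membranes, Bst2, known as tetherin, which holds budding virions to the cell, read 8.05, 9.23 and 8.84 in Allo/Y, 9.90, 9.57 and 9.96 in Tumor, 10.47, 10.20 and 10.23 in Tumor+Allo/Y and 10.08, 10.04 and 10.01 on day 28. Allo/Y varied most, and the day 28 arrays were nearly equal. They lay below each Tumor+Allo/Y array but above each Tumor array. The change over time was -0.25 (SE 0.25, adjusted p = 0.612) with a 95% interval from -0.81 to 0.30. Ifitm3, which blocks virus entry from endosomes, read 13.16, 13.22 and 13.44 in Allo/Y, 14.23, 14.57 and 14.74 in Tumor, 14.71, 14.48 and 14.64 in Tumor+Allo/Y and 13.72, 13.73 and 14.35 on day 28. Day 28 arrays did not overlap with Tumor+Allo/Y, and the highest of them lay within Tumor. Its change was -0.67 (SE 0.19, adjusted p = 0.0978), not called.

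Restriction factors of nucleus and cytoplasm follow. Samd9l, which restrains translation in infected cells, read 10.78, 10.90 and 10.98 in Allo/Y, 12.12, 12.26 and 12.41 in Tumor, 12.21, 12.29 and 12.55 in Tumor+Allo/Y and 12.39, 12.40 and 12.02 on day 28. The day 28 arrays overlapped with both 1-week groups with Tumor ACT. The change was -0.08 (SE 0.15, adjusted p = 0.822), with a 95% interval from -0.41 to 0.25. Sp100, a component of PML nuclear bodies, read 8.31, 8.60 and 8.51 in Allo/Y, 10.68, 10.87 and 10.75 in Tumor, 11.08, 10.71 and 10.98 in Tumor+Allo/Y and 10.87, 10.60 and 10.56 on day 28. By this probe day 28 overlapped with 1 week and the change was -0.25 (SE 0.14, adjusted p = 0.361). Its 2 dimmer probes gave -0.92 and -1.14, neither called in the fit over probes (adjusted p = 0.14 and 0.0931), so the small change of Sp100 is that of 1 probe.

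Isg20, an exonuclease acting on RNA, read 7.95, 8.22 and 7.88 in Allo/Y, 8.66, 9.12 and 9.00 in Tumor, 9.38, 8.98 and 9.72 in Tumor+Allo/Y and 8.99, 8.96 and 8.71 on day 28. The highest day 28 array was just above the lowest Tumor+Allo/Y array, and the change was -0.47 (SE 0.2, adjusted p = 0.222). Trim30a stood at -0.80 (SE 0.28, adjusted p = 0.152) and Rtp4, a chaperone that restrains interferon responses in mice, at -1.41 (SE 0.42, adjusted p = 0.102), both with ranges apart and neither called. Ifi27l2a stood at -0.60 (SE 0.19, adjusted p = 0.116) and overlapped between the times. Ifi35, a leucine zipper protein, read 9.48, 9.42 and 9.62 in Allo/Y, 10.05, 10.59 and 10.63 in Tumor, 10.77, 10.17 and 10.65 in Tumor+Allo/Y and 9.68, 9.53 and 9.65 on day 28. On day 28 it overlapped with Allo/Y and lay below both other groups. It fell by 0.91 on the log2 scale (SE 0.19, adjusted p = 0.043).

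Sensors of nucleic acid and their partners include Eif2ak2, the RNA-dependent kinase PKR that stops translation, which read 9.79, 9.99 and 10.01 in Allo/Y, 10.76, 11.17 and 11.05 in Tumor, 11.21, 11.12 and 11.55 in Tumor+Allo/Y and 10.24, 10.51 and 10.40 on day 28. The day 28 arrays lay between Allo/Y and the other groups without overlap. Scaled to leukocyte genes, Eif2ak2 stood at -1.55 against Allo/Y on day 28. It fell by 0.91 on the log2 scale over time (SE 0.16, adjusted p = 0.0283). Dhx58, the RIG-I relative LGP2, stood at -1.29 (SE 0.3, adjusted p = 0.0567), and its 3 dimmer probes gave -1.40, -1.72 and -0.945. The probe with -0.945 was above background on only 4 arrays. Zbp1, a sensor of Z-form nucleic acid that triggers necroptosis, stood at -0.74 (SE 0.36, adjusted p = 0.275) on its brightest probe. Its other probes, above background on 9 and 7 arrays, gave -1.71 and -1.62, and none was called. Trim25 stood at -0.52 (SE 0.21, adjusted p = 0.197).

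Adar read 8.51, 8.60 and 8.52 in Allo/Y, 9.20, 9.14 and 8.61 in Tumor, 9.29, 8.84 and 9.13 in Tumor+Allo/Y and 8.66, 8.56 and 8.34 on day 28. It was the only one of the 34 genes not called higher in Tumor than in Allo/Y, at 0.44 (SE 0.18, adjusted p = 0.0701), with Tumor replicate 6 close to the Allo/Y arrays. Its probes disagreed in size: the difference of Tumor+Allo/Y from Allo/Y was 0.54 by the brightest and from 0.78 to 1.60 by the 4 others. On day 28 the brightest probe stood at -0.02 (SE 0.18, adjusted p = 0.925) against Allo/Y, while the mean of its 5 probes gave 0.45, which was called. The day 28 call of Adar against Allo/Y therefore depended on the probe rule.

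Parp14, Dtx3l and Parp9 are neighbors on chromosome 16. Dtx3l, a ubiquitin ligase, works in a complex with Parp9, and Parp14 attaches ADP-ribose to proteins. Their changes over time were -0.89 (SE 0.2, adjusted p = 0.0513) for Parp14, -0.73 (SE 0.19, adjusted p = 0.0711) for Dtx3l and -0.80 (SE 0.37, adjusted p = 0.258) for Parp9. None was called, and the ranges of Parp9 overlapped. A second, dim probe of Dtx3l gave -0.12, and was also the exception at 1 week, with 0.58 over Allo/Y and an adjusted p of 0.1 in the fit over probes.

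In Tumor alone, 33 of the 34 genes were called higher than in Allo/Y, against 18.2% of all genes, with a median of 1.64. Scaled to leukocyte genes, 3 were called higher and 14 lower, with a median of -0.27 against -1.93 over all genes. The share of all genes called on that scale is not given here, so the counts are not read as particular to the 34. On the unshifted scale, Oas3 aside, for which there is only a bound, the largest differences were those of Mx1 (2.66), Trim30a (2.51) and Isg15 (2.37). The smallest were those of Adar, Irf9 (0.56) and Trim25 (0.64). This comparison shares the Allo/Y arrays with the one before.

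Between Tumor+Allo/Y and Tumor, at an adjusted p under 0.05, limma called 0 of the 34 genes, as it called 0% of all genes, and at an unadjusted p under 0.05 it marked 2 of 34, against 451 of 11971 (3.77%). The 2 were Dtx3l, at 0.53 (SE 0.19), and Isg15, at 0.51 (SE 0.22), each with overlapping ranges, and Oas3 came next in size at 0.50. Of the 34, 32 had a positive difference, with a median of 0.21, where 42.5% of all genes did, with a median of -0.04. Usp18 (-0.18) and Irf9 (-0.05) were negative, and Oasl2 stood at 0.01. Only Bst2 had arrays of Tumor+Allo/Y wholly above those of Tumor, 1 of 34 against 1.93% of all genes, and 0 with the arrays aligned on their 75th percentile.

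Within each of these groups 1 array read low across the genes. Tumor replicate 4 was the lowest of its group for 28 of the 34, and Tumor+Allo/Y replicate 8 for 30 and the highest for 0. Tumor replicate 6 and Tumor+Allo/Y replicate 8 also stood apart in their markers, with epithelium means of 7.97 and 10.61 against 10.36 and 10.52, and 9.62 and 9.20, on the other arrays of their groups. Tumor replicate 6 was the highest of its group for 17 of the 34. Leaving out both arrays therefore widens the difference by the choice of arrays. In that fit 12 of the 34 were called higher in Tumor+Allo/Y than in Tumor, with a median of 0.46. The share of all genes called in it is not given here, and no conclusion is drawn from the count. The part of these markers in the difference was not tested.

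Between 1 week and day 28 after the combined transfer, 9 of the 34 genes were called lower and 0 higher, against 0.351% of all genes called lower. The 9 were Ifit2, Isg15, Irf7, Oas1g, Cmpk2, Rsad2, Usp18, Eif2ak2 and Ifi35, and they made up 21.4% of the 42 genes called lower, while 26.5% of the 34 were called. The change was negative for 34 of 34, with a median of -0.91 against 0.00 over all genes, and beyond -1 for 14. The 3 arrays of day 28 lay wholly below those of 1 week for 27 of 34, against 10.9% of all genes, and 28 of 34 had an unadjusted p under 0.05, against 20.3%. A further 11 genes had an adjusted p between 0.05 and 0.1, from Ifit3 at 0.0512 to Ifitm3 at 0.0978. Ifit3, Oas3, Parp14 and Dhx58, just outside the threshold, were inside it in the fit over probes (adjusted p = 0.0446, 0.0436, 0.0467 and 0.0496).

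**Figure D3:**
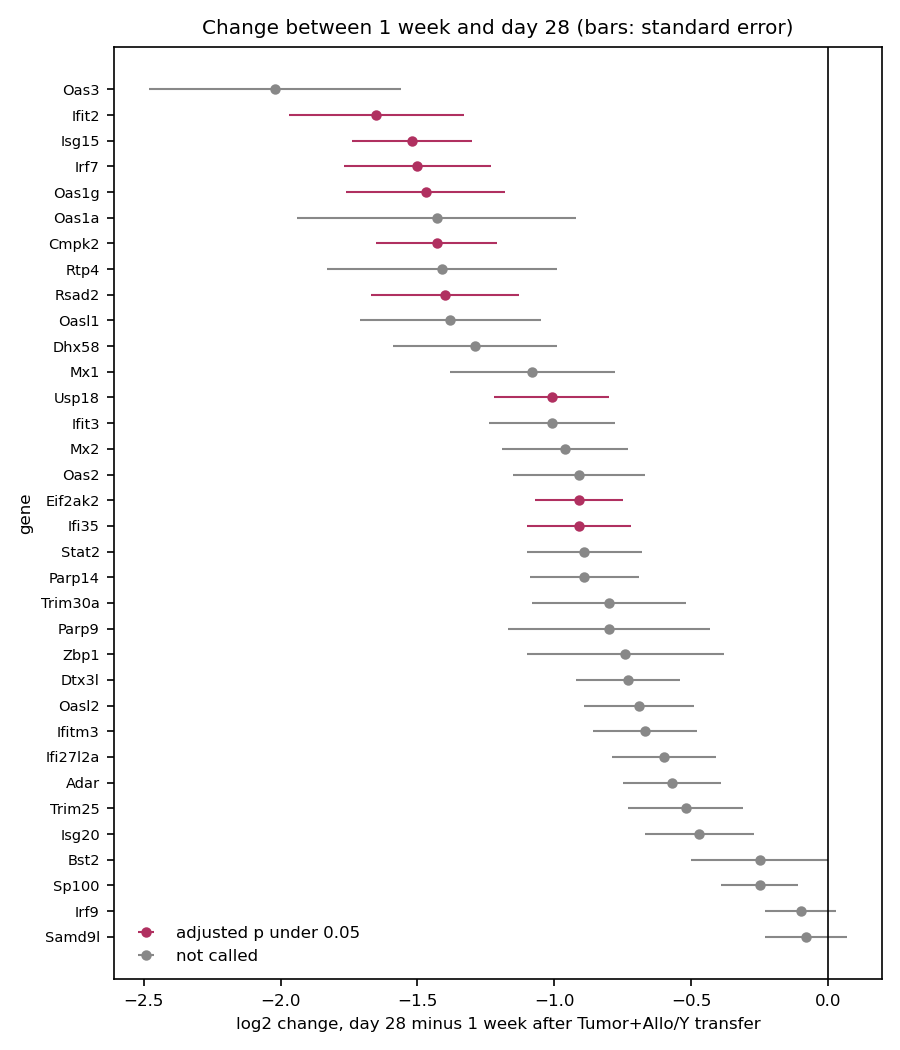
Log2 change from 1 week to day 28 after the Tumor+Allo/Y transfer for each of 34 genes, in rank order, with bars for the standard error and red for an adjusted p under 0.05. All 34 points lie below 0, from -2.02 for Oas3 to -0.08 for Samd9l. Oas3 has the largest change and the widest error after Oas1a.

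Ranked by size, the differences ran from Oas3, Ifit2, Isg15, Irf7 and Oas1g to Isg20, Bst2, Sp100, Irf9 and Samd9l. The rank of Oas3 rests on a standard error of 0.46, against 0.22 for Isg15. Each of the 60 kept probes of the 34 genes, dimmer ones included, had a negative change. In the fit over probes 23 of them were called lower. Some dim probes passed the detection threshold on few arrays, such as 4 for a Dhx58 probe, 6 for an Oas1g probe and 7 for a Zbp1 probe. Such a probe can be kept through its brighter groups alone, so the count of negative probes is only a description. Samd9l was negative under 23 of 25 other settings and each of the other genes under 25 of 25. On the unshifted scale the day 28 mean kept a median of 45% of the log2 difference that Tumor+Allo/Y showed over Allo/Y at 1 week, with over 75% kept by 4 genes and under 25% by 6.

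How many of these genes are called rests on single arrays. Without Tumor+Allo/Y replicate 9, day 28 replicate 10 or day 28 replicate 11, 0 of the 34 were called, without Tumor+Allo/Y replicate 7 it was 1, and without Allo/Y replicates 1, 2 or 3 it was 4, 4 and 2. Without Tumor replicate 5 it was 5. Without Tumor+Allo/Y replicate 8 the count was 18, and without Tumor replicate 6 it was 21. The share of all genes called in each of these fits is not given here, so the counts are not read as particular to the 34. In these fits the median change stayed between -1.08 and -0.81. A fit to the 6 arrays of both times alone called 0 (limma).

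The 25 leukocyte genes had a median change of 0.00, with 0 called in limma. Their array means were 11.11, 10.73 and 11.14 at 1 week and 11.08, 10.79 and 11.04 on day 28. With the arrays set to an equal mean of these genes the median of the 34 was -0.89 and 5 were called lower. The share of all genes called in that fit is not given here. Of 10 T cell markers 4 were called higher on day 28, with a median of 1.31, and their array means were 11.85, 11.53 and 11.24 against 10.32, 10.60 and 9.44. Neutrophil markers had a median of -0.97 with 1 of 9 called lower, and array means of 7.63, 7.33 and 7.85 against 8.65, 8.08 and 9.11. Monocyte and macrophage markers had a median of -0.17 with 0 of 13 called, and array means of 11.43, 11.28 and 11.60 against 11.79, 11.71 and 11.92. The values furthest below 0 in that list, picked after they were seen, were those of Ccr2, at -1.98 (SE 0.81, adjusted p = 0.209), and Fcgr1, at -1.78 (SE 0.55, adjusted p = 0.112). Cx3cr1, Mrc1, Adgre1 and C1qa went the other way, with day 28 means of 10.46, 11.57, 10.97 and 11.9 against 9.91, 11.44, 10.9 and 11.85. Plasmacytoid dendritic cell markers had a median of -0.30 with 0 of 8 called, B cell markers 1.19 with 0 of 4 and endothelial markers 0.56 with 0 of 11. Of 10 fibroblast and smooth muscle markers, Pdgfra (1.71) and Lum (1.79) were called higher, the median was 0.75, and the array means were 8.32, 8.58 and 8.33 against 7.36, 8.32 and 7.54. Of 20 epithelium markers the keratin gene Krt14 was called higher, by 3.41 (SE 0.68, adjusted p = 0.0396), and the median was 0.52. The part of these cell types in the fall was not tested.

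**Figure D4:**
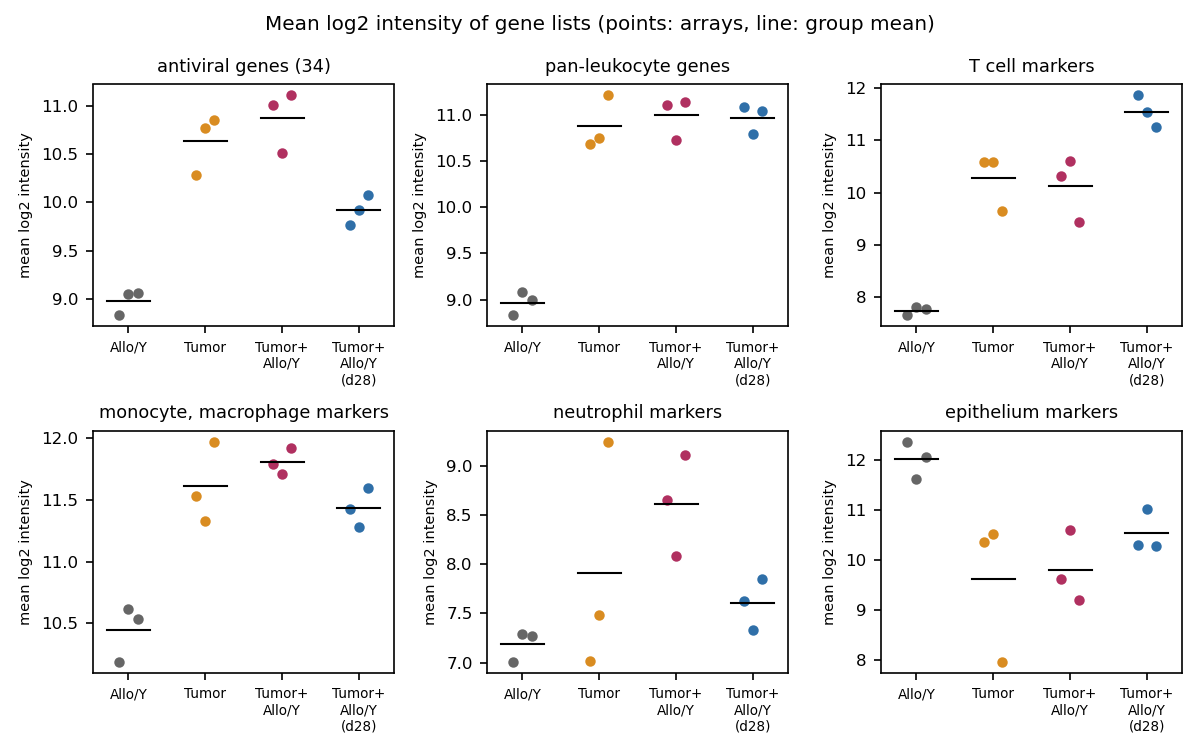
Mean log2 intensity on each array of the 34 antiviral genes and of 5 marker lists, with points for arrays and a line for each group mean; vertical axes differ. From 1 week to day 28 after Tumor+Allo/Y the antiviral mean drops from 10.51 or more to 10.08 or less while the leukocyte mean stays between 10.73 and 11.14, and against Allo/Y both means are higher in the other groups, so that the direction of the antiviral genes there depends on scaling to leukocyte genes.

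On day 28, 21 of the 34 genes were called higher than in Allo/Y at 1 week, against 18.8% of all genes, with a median of 0.87. Scaled to leukocyte genes, 0 were called higher and 28 lower, with a median of -1.14 against -2.05 over all genes. The share of all genes called on that scale is not given here, so the counts are not read as particular to the 34. On the unshifted scale the largest differences were those of Sp100 (2.20), Trim30a (2.19) and Mx1. The place of Sp100 is that of its brightest probe, and its dimmer probes gave 1.16 and 0.33. The smallest differences were those of Adar, Ifi35 (0.12) and Rsad2 (0.22). Rsad2, Usp18, Ifi35, Adar, Cmpk2, Trim25, Oasl1, Oasl2 and Oas1a overlapped with Allo/Y on the arrays. The leukocyte genes themselves differed by a median of 2.14, and after that scaling only Trim30a and Sp100 had positive values. Without Allo/Y replicate 1 the count of 21 became 14, and the share of all genes called in that fit is not given here.

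Against Tumor at 1 week, 5 of the 34 genes were called lower on day 28, against 0.802% of all genes, with a median of -0.68. They were Irf7 (-1.40), Rsad2 (-1.33), Usp18 (-1.20), Cmpk2 (-1.18) and Isg15, which was lower by 1 on the log2 scale. These groups differ in both transfer and time, which cannot be told apart here. Oas3 had the largest value, -1.52 (SE 0.46, adjusted p = 0.0959), and Samd9l (0.01), Isg20 (-0.04) and Sp100 (-0.09) the smallest. Bst2 stood at 0.24 (SE 0.25), with the day 28 arrays above all Tumor arrays. This comparison shares the day 28 arrays with that over time. Fits without 1 array come next, and the share of all genes called in them is not given here. Without any 1 of the Allo/Y arrays, Tumor replicates 4 or 5, Tumor+Allo/Y replicate 7 or day 28 replicates 10 or 11, limma called 0 or 1, without Tumor replicate 6 it called 3, and without day 28 replicate 12 or Tumor+Allo/Y replicate 8 it called 8 and 10.

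The day 28 change was set against the Allo/Y level of each gene. Over the 34 genes Pearson's r was 0.32 and Spearman's rho 0.21, where both were 0.05 over all 11971 genes. Set against the 1-week Tumor+Allo/Y level, which shares arrays with the change, r was 0.15 and rho 0.06, where all genes gave -0.12 and -0.11. The points share their arrays, genes are not replicates, and the levels of different probes are not on one scale, so no p is given. Oas3, which was not above background in Allo/Y, Oas1a, Mx1 and Rtp4 had low Allo/Y levels and changes beyond -1. Parp9, whose level of 5.90 is as low as that of Rtp4 (5.96), stood at -0.80. Rsad2, with a level of 11.65, fell by 1.40, and Samd9l, with a level of 10.89, stood at -0.08. With no detection filter r was -0.01, over 37 genes, since Ifit1, Ifih1 and Xaf1 then enter.

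**Figure D5:**
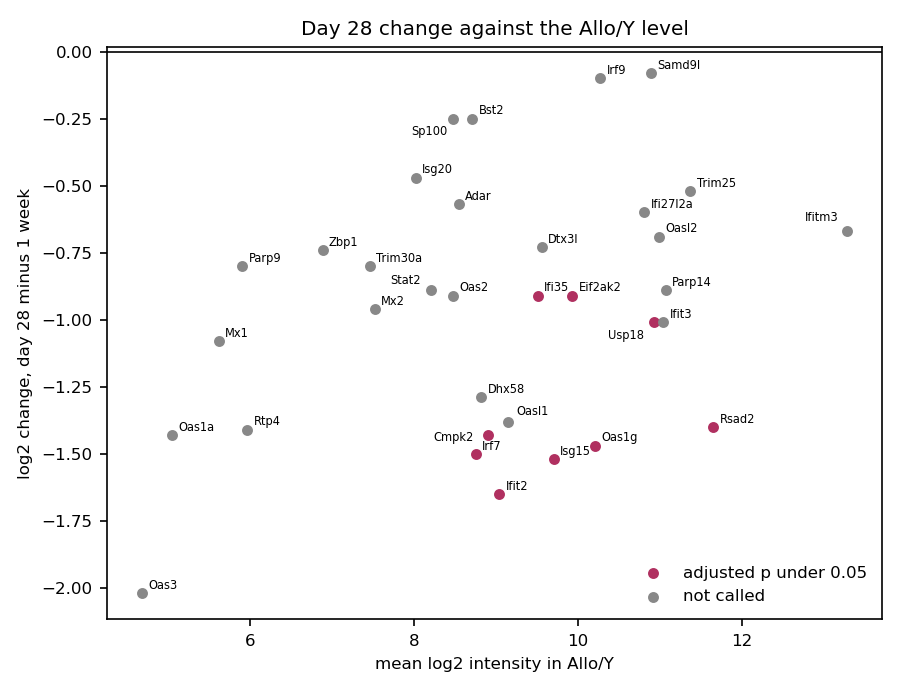
Log2 change from 1 week to day 28 after Tumor+Allo/Y against the mean log2 intensity in Allo/Y, 1 point per gene (34), with red for an adjusted p under 0.05. Changes near -1.5 occur from 5.04 for Oas1a to 11.65 for Rsad2, and the points show no tight line (r = 0.32).

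Upstream of these genes, 16 of 25 listed ligands, receptor chains and signaling genes were measured, and on the unshifted scale 10 were called higher and 1 lower in Tumor+Allo/Y than in Allo/Y. The receptor chain Ifnar2 differed by 2.07 (SE 0.28, adjusted p = 0.000378), Tyk2 by 1.06, Jak1 by 0.83, Irf1 by 1.84 and Irf8, a myeloid and lymphoid factor, by 2.64, beside the leukocyte median of 2.42. Irf3 stood at -0.42 (SE 0.16, adjusted p = 0.0534). None of the 16 was called over time, and Irf8 was -0.91 (SE 0.24, adjusted p = 0.0786) with ranges apart. The probe of Ifnar1 was above background on 0 arrays.

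Among the ligands, Ifnb1, interferon beta, read 7.35, 8.05 and 7.68 in Allo/Y, 6.15, 6.44 and 4.96 in Tumor, 5.98, 6.66 and 6.17 in Tumor+Allo/Y and 5.70, 5.85 and 5.93 on day 28. It was highest in Allo/Y, and was called lower in Tumor+Allo/Y, at -1.42 (SE 0.34, adjusted p = 0.0075). The interferon alpha genes Ifna2, Ifna4, Ifna5, Ifna11, Ifna12 and Ifna13, and Ifnk, were above background on 0 arrays. Ifna1 was above background on every array, at 5.44, 5.38 and 5.72 in Allo/Y, 5.67, 5.47 and 5.96 in Tumor, 5.46, 5.53 and 5.72 in Tumor+Allo/Y and 5.83, 6.02 and 5.53 on day 28. Its groups overlapped, and it was not called against Allo/Y, at 0.06 (SE 0.17, adjusted p = 0.807) in Tumor+Allo/Y, or over time, at 0.22 (SE 0.17, adjusted p = 0.505). Ifne and Ifnz were above background on some arrays of the series, and neither was called in any comparison. The gene of interferon gamma, Ifng, read 7.86, 8.01 and 8.01 in Allo/Y, 10.51, 11.06 and 10.92 in Tumor, 10.81, 11.01 and 10.69 in Tumor+Allo/Y and 12.54, 12.20 and 10.97 on day 28. It was higher in Tumor+Allo/Y than in Allo/Y by 2.88 (SE 0.33, adjusted p = 0.000176), and on day 28 its change was 1.07 (SE 0.33, adjusted p = 0.114), in the opposite direction to the antiviral genes and not called.

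Nearby lists gave the wider setting. Of 16 measured interferon gamma genes, 14 were called higher in Tumor+Allo/Y than in Allo/Y, with a median of 2.77. Those with the smallest p were Cxcl9 (4.99), a T cell chemokine, and the GTPases Igtp (3.32) and Gbp2b (6.90). Over time 1 was called, the receptor chain Ifngr1, higher at 1.07 (SE 0.18, adjusted p = 0.0283), while the chemokine Cxcl10 stood at -1.37 (SE 0.41, adjusted p = 0.108) and the list's median was -0.73. Of 19 genes of nucleic acid sensing, 12 were called higher and 2 lower at 1 week and 0 over time, where the median was -0.61. They include Tlr7 (1.65) and Sting1 (1.52), the gene of RIG-I, Ddx58 on the array (0.91), Cgas (0.29, not called) and Mavs, the adaptor of RIG-I, which was lower at -0.53. Tlr9 was not above background in Allo/Y and was at least 1.42-fold higher in Tumor+Allo/Y (adjusted p = 0.0156).

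Of 42 other interferon-stimulated genes, 33 were called higher and 2 lower in Tumor+Allo/Y than in Allo/Y, with a median of 1.63. Over time 3 were called lower, Ifit1bl1 (-1.18), a relative of the Ifit genes, Znfx1 (-0.90), a helicase, and Tdrd7 (-0.80), and the list's median was -0.60, against -0.91 for the 34 antiviral genes. On day 28, 26 of the 42 were called higher and 4 lower than in Allo/Y. Counts for the lists above Allo/Y are on the unshifted scale, where leukocyte genes rose as well.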

How the data were processed

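Total RNA of CD45+ prostate cells from 12 mice, 1 per array and 3 per group by the design text, was labelled as biotinylated cRNA and read on Illumina BeadChips. The deposited table holds probe intensities and a detection p-value per array, made with GenomeStudio per the submitters' processing notes, neither normalized nor background-subtracted as its values show. A second deposited table holds the authors' normalized intensities, which share 1 maximum across arrays, and served as an alternative. In R 4.3.3 with limma 3.58.1, intensities were background-corrected by normexp with negative controls inferred from the detection p-values, given an offset of 16, converted to log2 and quantile-normalized. Of 45281 probes, 23054 passed the detection threshold (p under 0.05 on 3 or more arrays), and among those with a symbol the brightest stood for each of 11971 genes. A model with 4 group means over the 12 arrays was fitted with lmFit and eBayes, all p-values being adjusted by Benjamini-Hochberg over those genes, at a threshold of 0.05. Exact permutation of 3 against 3 arrays cannot go below 0.1. The procedure was tested on simulated data.

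The genes, lists and tests were chosen with earlier results of these data known. Values on every array are given for a fixed set of genes, for the 5 largest and 5 smallest day 28 differences and for genes whose call differed from the rest, and in each comparison the 3 largest and 3 smallest differences are named. Alternatives covered background correction, normalization, detection filter, probe rule, samples fitted, variance model, minimum fold, scaling to leukocyte genes, an epithelium covariate and leaving out arrays. Promoter sequences are RefSeq's for GRCm38.p6. Scan dates and slides are not given in the sources used here.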

Additional observations from a re-analysis of the deposited data

How the results depend on the processing

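The direction against Allo/Y depended on scaling to leukocyte genes, and the number of genes called over time depended on single arrays. With arrays at an equal mean of leukocyte genes, 17 of the 34 genes were called in Tumor+Allo/Y and 17 in Tumor against Allo/Y, mostly lower, and 28 on day 28, all lower. Groups then did not overlap for 22, 18 and 29 genes. The same scaling moved the median of all genes to -2.07, -1.93 and -2.05 in these comparisons. The shares of all genes called or not overlapping on that scale are not given here, so these counts are not read as particular to the 34. Over time 5 were called and against Tumor 2. The sign turned for 19 of the 34 genes in Tumor+Allo/Y, 22 in Tumor and 31 on day 28 against Allo/Y. Of the genes followed one by one in each comparison, those that turned were, in Tumor+Allo/Y against Allo/Y, Rsad2 -0.41, Usp18 -0.79, Stat2 -0.48, Irf9 -1.51, Bst2 -0.43, Ifitm3 -0.69, Isg20 -0.68, Samd9l -0.56, Trim25 -1.15 and Adar -1.48. In Tumor against Allo/Y they were Rsad2 -0.37, Oasl1 -0.24, Usp18 -0.49, Stat2 -0.51, Irf9 -1.35, Bst2 -0.81, Ifitm3 -0.68, Oas1g -0.13, Isg20 -1.0, Samd9l -0.54, Trim25 -1.27 and Adar -1.47. On day 28 against Allo/Y they were Isg15 -0.63, Irf7 -1.05, Ifit3 -0.89, Rsad2 -1.78, Oasl1 -1.25, Mx1 -0.03, Usp18 -1.78, Stat2 -1.35, Irf9 -1.59, Bst2 -0.66, Ifitm3 -1.34, Oas3 -0.88, Ifit2 -1.07, Oas1g -1.34, Isg20 -1.14, Samd9l -0.62 and Ifi35 -1.89. The mean of kept probes put Adar at 0.45 on day 28 against Allo/Y.

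Over time, 9 genes became 3 with arrays aligned on their 75th percentile, 5 without the detection filter, 0 in a fit to the 2 groups alone, 0 against a minimum fold of 1.5, 15 with epithelium markers as a covariate, 30 with array quality weights and 29 without Tumor replicate 6 and Tumor+Allo/Y replicate 8. On day 28 against Tumor, 5 became 8 with no background correction, with the authors' normalized values and with a trended robust prior, 3 at the 75th percentile, 10 with the epithelium covariate, 14 without the 2 arrays, and 0 in the 2 groups alone, with array weights or against a minimum fold of 1.5. On day 28 against Allo/Y, 21 became 13 at the 75th percentile and 8 against a minimum fold of 1.5. The epithelium covariate left 19 in Tumor against Allo/Y, and without the 2 arrays 12 were called in Tumor+Allo/Y against Tumor. Those 2 were often the highest array of Tumor and mostly the lowest of Tumor+Allo/Y, so leaving them out widens that difference. The causes were not tested.

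Leaving out 1 array gave 32 to 34 called in Tumor+Allo/Y and 30 to 33 in Tumor against Allo/Y, 0 to 0 between those groups, 0 to 21 over time, 14 to 24 on day 28 against Allo/Y and 0 to 10 against Tumor, 29 to 34 by the F test, and correlations of 0.22 to 0.46. The correlation of the day 28 difference with the Allo/Y level was 0.32. It became 0.10 with no background correction, 0.19 at the 75th percentile and 0.16 with the authors' values. It was -0.01 without the detection filter (37 genes), 0.46 without the 2 arrays, and 0.15 against the 1-week Tumor+Allo/Y level. The alternatives for the F test and for groups that do not overlap, for the correlation those of the detection filter and the 2 arrays, and for single genes those of the stricter detection threshold, the 2 groups alone, the variance model, the minimum fold and the covariate, were chosen after seeing the data. No paired analysis was possible because the groups share no replicate numbers. With 3 arrays a group, precision is limited by their number, and Oas3, not above background in Allo/Y, has only a bound against it.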
